A study of Mus musculus with 34 samples.

Results

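The 1067 lncRNA intervals described here are the genomic regions for which the array carries probes on both strands. They were chosen from the probe names alone: a lncRNA probe (its ID starts with A_30) is named by chromosome, start and end on mm9 and by a letter, F or R, and an interval was kept when both letters occur for the same start and end. Of 3540 intervals named in this way, 1067 are probed on both strands and 2473 on a single strand. The 1067 intervals hold 9682 of the 16251 lncRNA probes, 4893 with F and 4789 with R. F and R are read here as the forward and the reverse strand, and the files do not say whether the letter names the strand of the probe or that of the transcript.

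The brain of a male C57BL/6J mouse aged 3 days was sliced along a single axis, and slices were collected into fractions that the labels give as 500 micron wide. The study used 3 such mice, with no treatment or genetic change named in the labels: the first gave the coronal series of 15 fractions, the second the horizontal series of 8 and the third the sagittal series of 11, in which fractions 1 and 11 each pool 2 cut fractions. Each of the 34 fractions was hybridised once to a single-colour Agilent mouse array, so no fraction has a replicate, and the effects of mouse and axis cannot be told apart. The labels do not say at which end the count starts; in the coronal series Hoxb5 and Hoxc4, hindbrain genes, peaked in fraction 2, and Tbx21 and Eomes, genes of the olfactory bulb, peaked in fraction 15. The neuronal genes Snap25, Stmn2 and Tubb3 were detected in all 34 fractions, while the liver gene Alb was detected in 2 and Apoa1 in 0. The arrays lay on 5 slides, and between 2290 and 3918 of the 9682 probes (23.7% to 40.5%) were well above background in a fraction. Slide 1 held horizontal fractions only, slide 2 coronal fractions 1 to 8 and slide 4 sagittal fractions 2 to 9. Slide 3 held coronal fractions 9 to 11 and 13 to 15 and sagittal fraction 1. Slide 5 held coronal fraction 12, horizontal fractions 3 and 4 and sagittal fractions 10 and 11. The effects of slide and of position along a series thus cannot be fully told apart. Fewer cells of a type and less RNA per cell cannot be told apart in such bulk fractions.

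Long non-coding RNAs are transcripts that are not translated into protein, and many are transcribed from the strand opposite to a gene, from inside an intron, or in the other direction from a shared promoter. A few of them, such as Malat1, are abundant in neurons. Because the labelling reaction copies RNA in a fixed orientation, a probe on such an array is meant to read RNA from a single strand. An interval probed on both strands is thus meant to read sense and antisense transcription separately. How well the strands were kept apart in these data was not tested.

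The intervals were between 5026 and 508115 bp long, with a median of 17901 bp, and lay on 20 chromosomes, 83 of them on chromosome 1 and 25 on chromosome X. A strand carried 1 to 10 probes with a median of 5. On 327 intervals both strands had 5 probes, and on 73 each strand had a single probe. The intervals are not all separate regions: 62 overlap another of the 1067, and 706 overlap any other named interval. Intervals are not replicates of each other, and probes of an interval share their locus.

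Both strands had a detected probe in more than 5 of every 10 intervals. A probe counted as detected when the scanner software gave it the flag for a signal well above background in 1 or more fractions in every series, a rule that 61.4% of all 55681 probes on the array met. Of the probes in the 1067 intervals, 3841 (39.7%) were detected, against 40.8% of the probes of single-strand intervals and 70.1% of the probes outside the lncRNA set. The share was 37.7% for F probes and 41.6% for R probes. In all 34 fractions 2015 probes (20.8%) were detected, and 3439 (35.5%) were in none. Counting a strand as detected when at least 1 of its probes was, 585 intervals (54.8%) were detected on both strands, 187 on F only, 189 on R only and 106 (9.93%) on neither. This count depends on the definition, since 59 intervals had every probe of both strands detected and 1014 passed on both strands with a weaker flag.

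**Figure D1:**
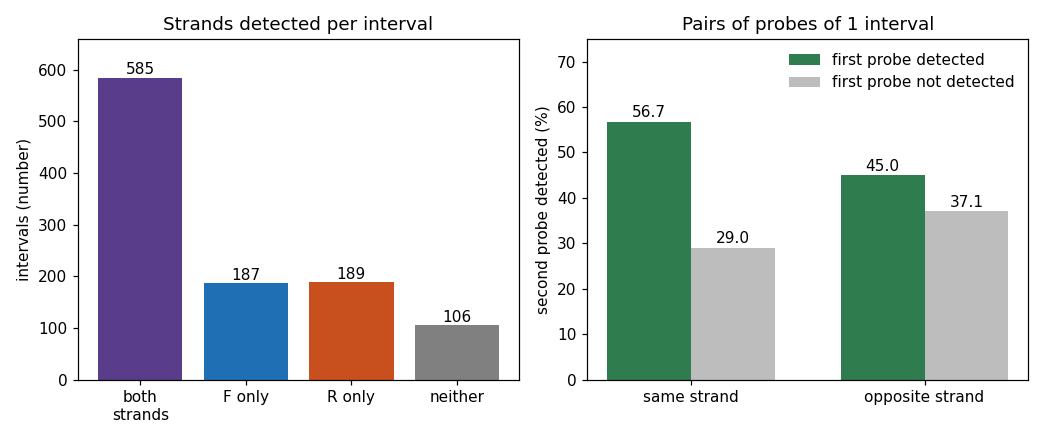
Left, number of intervals (vertical axis) by the strands detected, for all 1067 intervals. Right, percentage of probe pairs of an interval in which the second probe was detected (vertical axis), for pairs on the same strand and on opposite strands, where the first probe was detected (green) or not (grey): the 2 bars differ by more on the same strand (56.7% and 29.0%) than on opposite strands (45.0% and 37.1%).

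Detection was shared mainly within a strand. Where a probe was detected, another probe of its own strand was detected in 56.7% of pairs and a probe of the opposite strand in 45.0%. Where the probe was not detected, the shares were 29.0% and 37.1%. At the level of intervals, the F strand was detected in 75.6% of the 774 intervals with R detected and in 63.8% of the 293 without. Among the 327 intervals with 5 probes on each strand, all 10 probes were detected in 1, all 5 of one strand and none of the other in 18 (5.5%), and no probe in 28 (8.56%). These pairs share probes, so the shares are given without a test.

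The strands of an interval also differed more in signal than probes of one strand did. Signal is given as log2 of the processed signal less the 75th percentile of the array. Probes differ in how well they bind, so the level of a probe cannot be set against that of another as an amount of RNA, and the spread between probes of one strand is the measure to read the strand difference against. The median absolute difference of mean log2 signal was 1.30 for 5251 pairs of detected probes on the same strand, 2.32 for 4703 pairs on opposite strands and 1.96 for pairs from different intervals. Between the 3 series the opposite-strand value lay between 2.32 and 2.37 and the same-strand value between 1.28 and 1.33. With normexp background correction and quantile normalization together they were 1.06 and 0.573, and with quantile normalization alone 2.33 and 1.30.

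Neither strand was the brighter throughout. Over all probes of a strand, detected or not, the median of F minus R was −0.10 on the log2 scale and the median absolute difference was 1.15, with 578 intervals over 1 apart and 201 over 3 apart. On 748 intervals with at least 3 probes on each strand, every probe of one strand was brighter than every probe of the other in 101 (13.5%), with F above in 45 and R above in 56. These counts include strands whose probes were not above background, where the difference has no exact size. No reference share was computed for the 13.5%, so whether it exceeds that of probes grouped regardless of strand was not tested.

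In 353 of the 562 intervals overlapped on 1 strand by a single-strand interval (62.8%), that strand was the brighter. Of the 1067 intervals, 684 overlap at least 1 of the intervals probed on a single strand, a comparison chosen after the data had been seen. In the 262 intervals overlapped on F only, 49.5% of F probes and 36.3% of R probes were detected, the median of F minus R was 0.59, and F was the brighter strand in 60.3%. In the 300 overlapped on R only, 30.4% of F probes and 49.5% of R probes were detected, the median of F minus R was −0.59, and R was the brighter strand in 65.0%. In the 122 overlapped on both, the median was 0.03.

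**Figure D2:**
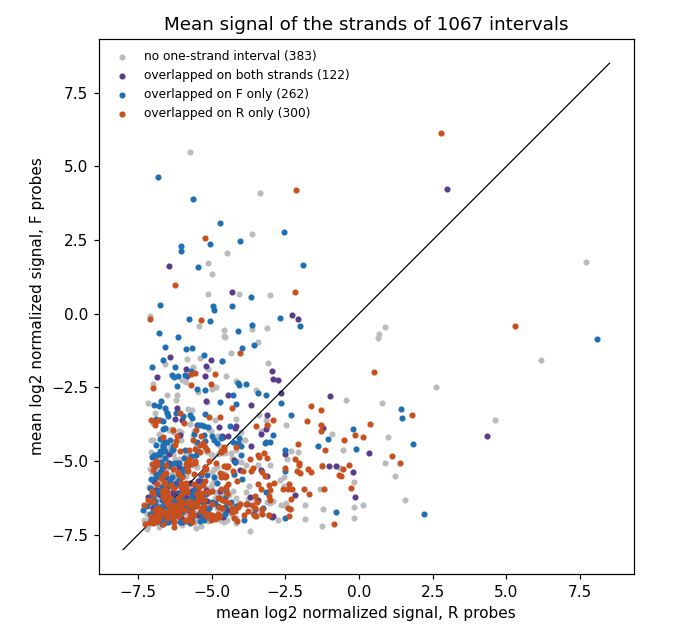
Mean log2 normalized signal over 34 fractions of the R probes (horizontal axis) and the F probes (vertical axis) of each of the 1067 intervals, coloured by the strand of the single-strand intervals that overlap it. The black line marks equal means, and intervals overlapped on F only lay above the line in 60.3% and those overlapped on R only below it in 65.0%.

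The pattern over the brain was compared by Pearson's r over the 34 fractions, the measure with which the study groups transcripts at a threshold of 0.85. For pairs on the same strand of an interval the median r was 0.391, and 609 of 5251 pairs (11.6%) reached 0.85. For pairs on opposite strands the median r was 0.189, and 50 of 4703 (1.06%) reached 0.85. Over all pairs of detected probes on the array the share was 0.149%, and over pairs from different intervals of this set the median r was 0.060 and the share 0.0508%. The middle 9 in 10 of the opposite-strand values ran from −0.278 to 0.737, against −0.143 to 0.928 on the same strand. The points are 34 positions in 3 brains that share arrays and slides, so r is given as a description.

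**Figure D3:**
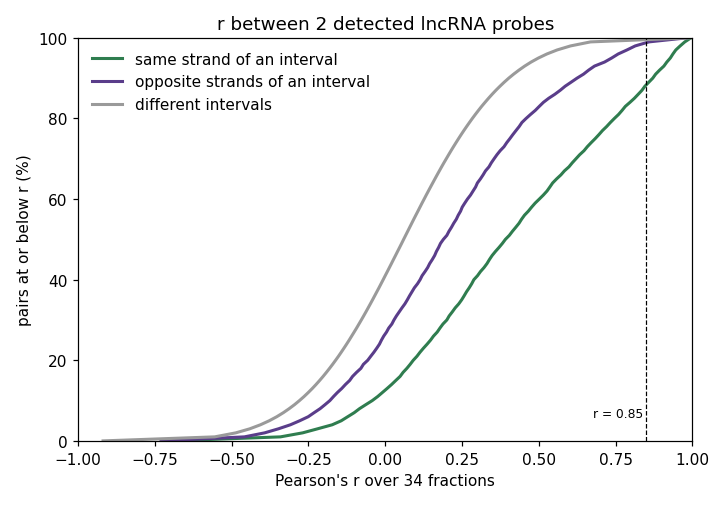
Cumulative percentage of probe pairs (vertical axis) at or below each value of Pearson's r over 34 fractions (horizontal axis), for pairs on the same strand of an interval, on opposite strands and in different intervals. The dashed line is r = 0.85, which 11.6%, 1.06% and 0.0508% of these pairs reached.

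The order of the strands was the same in every series and on the 4 slides that hold at least 6 arrays. The same-strand and opposite-strand medians were 0.443 and 0.225 for the coronal fractions alone, 0.464 and 0.232 for the horizontal and 0.345 and 0.137 for the sagittal fractions. On slides 1 to 4 taken singly, the same-strand median lay between 0.309 and 0.509 and the opposite-strand median between 0.135 and 0.283. Slides 1, 2 and 4 each hold fractions of a single series, so the slide values are not separate from the series values. Both rose with signal: in the brightest of 3 equal groups of pairs, ranked by the dimmer probe, the medians were 0.687 and 0.336, and in the dimmest they were 0.200 and 0.110. Longer intervals had lower values, with 0.474 and 0.236 in the shortest of 3 equal groups and 0.300 and 0.147 in the longest. Of 488 intervals with both kinds of pair, the same-strand median was the higher in 335 (68.6%) and the opposite-strand median in 153.

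A pair on opposite strands reached 0.85 in 20 of the 585 intervals that have one, and a pair on the same strand in 154 of 678. The overlapping single-strand intervals gave values of the same order: r between a probe of a member interval and a probe of an overlapping single-strand interval had a median of 0.335 for the same letter (3901 pairs, 9.77% at 0.85) and 0.150 for the opposite letter (3127 pairs, 1.38%). For 272 intervals with a probe of each strand detected in all 34 fractions, the mean over those probes was taken as the profile of a strand. The median r between the strand profiles was 0.348. In 86 of these intervals both profiles varied more than the median probe detected in all fractions (SD 0.264), and of these 9 reached 0.85 and 18 were below 0.

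Of these 86 intervals, chr1:42689799-42749799 had the highest r, and both of its strands were most like Pantr1. The positions of gene and interval were not compared, so whether the interval holds part of Pantr1 was not tested. Pantr1 is a lncRNA gene next to Pou3f3, which encodes a transcription factor of the developing forebrain, and its own probe on the array had r = 0.978 with the F profile and 0.996 with the R profile, the highest of the 20973 gene-annotated probes compared. The R profile (3 of 6 probes) had its lowest, median and highest log2 signal at 3.37, 4.42 and 5.73 in the coronal series, at 3.88, 4.40 and 5.14 in the horizontal series and at 3.86, 4.70 and 5.29 in the sagittal series. The F profile (3 of 7 probes) lay at −1.64, −0.68 and 0.36 in the coronal series, at −1.17, −0.73 and −0.07 in the horizontal series and at −0.99, −0.37 and 0.16 in the sagittal series. The 2 profiles did not overlap in any series, and both peaked in coronal fraction 12, horizontal fraction 2 and sagittal fraction 1 and were lowest in horizontal fraction 8 and sagittal fraction 6. Their r was 0.976 over all fractions, 0.990, 0.970 and 0.933 within the 3 series, and between 0.903 and 0.984 within slides 1 to 4.

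Not all probes of this interval shared the pattern. Of 12 pairs of detected probes on opposite strands, 6 reached 0.85, and the range was 0.034 to 0.981. The F probe A_30_P01019560, at a mean log2 signal of −0.10 with an SD of 0.18 over the fractions, had r = 0.311 with the R profile, while the F probes A_30_P01023240 and A_30_P01029716 had r = 0.978 and 0.973. The F probes detected in all fractions thus fell into different patterns.

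In chr16:43623581-43642715 both strands were most like Zbtb20, a zinc finger transcription factor needed for the formation of the hippocampus. Whether this interval holds part of Zbtb20 was likewise not tested. The r with the Zbtb20 probe was 0.980 for the F profile and 0.924 for the R profile, and r between the strands was 0.948, with 0.941, 0.972 and 0.963 in the coronal, horizontal and sagittal series. All 10 F probes and all 10 R probes were detected in each series, but 9 F probes and only 2 R probes in all 34 fractions. The F profile ran from −0.13 over a median of 0.62 to 1.58 in the coronal series, from −0.68 over 0.73 to 1.72 in the horizontal series and from 0.18 over 1.01 to 1.34 in the sagittal series. The R profile ran from −3.64 over −2.79 to −2.04, from −3.99 over −2.76 to −2.19 and from −3.46 over −2.74 to −2.14 in the same order. F was thus above R in every fraction, and the peak of both strands was coronal fraction 10 and horizontal fraction 4. Of the 100 pairs across strands 6 reached 0.85, with a range of 0.231 to 0.913. The reference tables place Zbtb20 on chromosome 16 and on the forward strand. Over all strand profiles with r of 0.85 or more to a most like gene on their own chromosome, 17 had a gene whose strand was known, and in 11 of these the letter was that of the gene's strand.

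**Figure D4:**
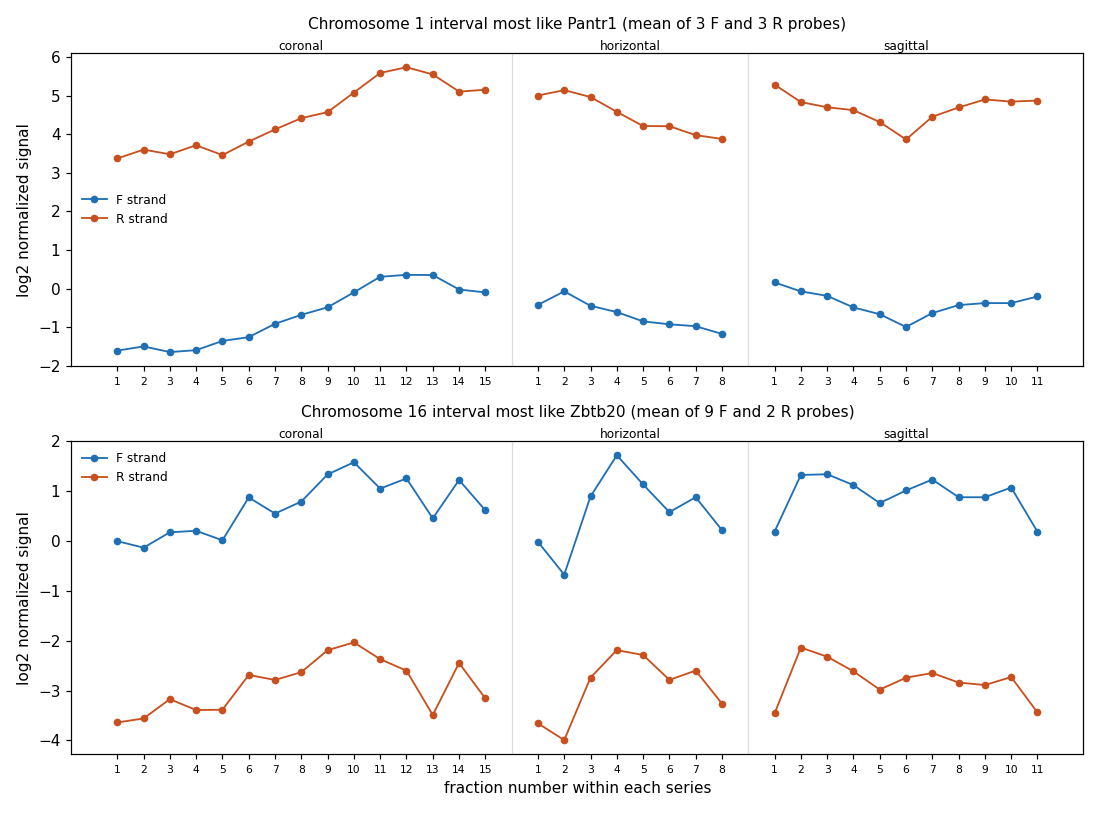
Log2 normalized signal (vertical axis) of the F profile (blue) and the R profile (orange) in the 34 fractions (horizontal axis, fraction number within the coronal, horizontal and sagittal series). Above is the chromosome 1 interval most like Pantr1 and below the chromosome 16 interval most like Zbtb20: in both the strands lay apart and moved together, with r = 0.976 and 0.948.

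Of the 5 intervals with the highest r among the 86, the other 3 each had a strand most like a ribosomal protein gene. In chr11:22681800-22707775 r was 0.927, and the single R probe, at a mean log2 signal of 8.08, was most like Rplp2, a ribosomal protein gene (r = 0.982). In chr2:167085700-167117795 r was 0.910, and the strands were most like the ribosomal protein genes Rps26 (r = 0.973) and Rps27 (r = 0.952). In chr13:83867711-83878140 r was 0.912, and the strands were most like Ptma, prothymosin alpha (r = 0.927), and Rps15a (r = 0.909). The values of the chromosome 11 and chromosome 2 intervals depended on scaling: with quantile normalization they were 0.690 and 0.702. Whether these probes also bind RNA of the genes they resemble was not tested.

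The most like gene was seldom on the chromosome of the interval. Over the 544 strand profiles of the 272 intervals, the gene-annotated probe with the highest r was on the same chromosome in 32 (5.88%), and a mean of 5.40% of the gene probes lay on the chromosome of an interval. A ribosomal protein gene (a symbol starting with Rps or Rpl) was the most like in 17 (3.12%), and 0.825% of the gene probes carry such a symbol. The 17 include R profiles on chromosomes 14 and 15 that were most like Rps21. As described below, both lay lower on every array of slide column 4 than on all other arrays. Whether the place of the array on its slide accounts for these matches was not tested. An interval picked after its values were seen is chr19:5771425-5848475, whose R profile was most like Malat1, a nuclear lncRNA, at r = 0.919, and Malat1 is on chromosome 19. Whether any interval holds part of the gene it is most like was not tested.

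Among the same 86 intervals, the lowest r values were below 0. In chr14:55671783-55680316 r between the strands was −0.496, and it was below 0 in all series, at −0.668, −0.520 and −0.503. The R profile (4 of 10 probes) was most like Zfhx3, which encodes a transcription factor with zinc fingers and homeodomains (r = 0.951). It had its lowest, median and highest value at −1.82, −0.69 and −0.21 in the coronal series, at −1.14, −0.66 and −0.34 in the horizontal series and at −1.97, −0.69 and −0.26 in the sagittal series. It was highest in coronal fraction 5 and lowest in coronal fraction 15 and sagittal fraction 11. The F profile (1 probe, A_30_P01019517) ran from −1.55 over −0.88 to −0.43, from −1.78 over −1.12 to −0.36 and from −1.32 over −0.94 to −0.72, and was lowest in coronal fraction 8, where R was near its top. The ranges of the strands overlapped in every series. Only 1 of the 5 F probes was detected in all fractions, and another, A_30_P01025500, detected in 5 fractions, had r = −0.022 with it. On the R strand 3 of the 4 probes had r of 0.988 or more with their mean, while A_30_P01026773 had −0.053.

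The other 4 intervals with the lowest r were less even across the series. In chr16:23992037-24001037 r was −0.565, at −0.240, −0.826 and −0.673 in the coronal, horizontal and sagittal series, and the F probe used was most like Dcc, a netrin receptor gene (r = 0.847). In chr1:138528250-138538250 r was −0.613 over all fractions and −0.594, −0.661 and 0.127 within the series, and the F profile was most like Gria2, a glutamate receptor subunit gene (r = 0.908). In chr11:70196232-70203307 r was −0.362 with 0.201 in the sagittal series, and in chr7:91558475-91733625 it was −0.337 with 0.172 in the horizontal series and −0.107 with slide means removed. Thus 2 of the 5 intervals kept their sign in every series and 3 did not.

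Change along the series was tested with limma as a linear and a quadratic term of fraction number within each series, with Benjamini-Hochberg adjustment over all 34186 detected probes. Of all of these, 64.5% passed an adjusted p of 0.05. Of the 3841 probes tested in the 1067 intervals, 1748 (45.5%) passed, 45.6% of F probes and 45.4% of R probes. Both strands had a probe that passed in 226 of 585 intervals, F only in 127, R only in 125 and neither in 107. Each position has 1 array and neighbouring fractions are alike, so these p-values measure the spread around a smooth curve and are too small to that extent.

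Of the 1748 probes that passed, 300 (17.2%) had their highest coronal value in fraction 15, 239 (13.7%) in fraction 1, 210 (12.0%) in fraction 13 and 207 (11.8%) in fraction 12. For the 20299 other probes on the array that passed, these shares were 20.4%, 11.8%, 9.36% and 13.2%, so fraction 15 was the most frequent peak in both sets. Where both probes of a pair passed, their coronal peaks were within 1 fraction of each other in 39.9% of 1179 pairs on opposite strands and in 56.9% of 1808 pairs on the same strand.

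The difference between paired probes was tested in the same way over 9954 pairs, of which 14.6% passed an adjusted p of 0.05. On opposite strands 843 of 4703 pairs (17.9%) passed, and on the same strand 612 of 5251 (11.7%). By interval, at least 1 pair passed in 236 of 585 (40.3%) on opposite strands and in 220 of 678 (32.4%) on the same strand. Pairs share probes and the 2 shares were not tested against each other. With the slide as a random block the shares were 12.9% and 7.92%.

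The 5 opposite-strand pairs with the smallest p came from 5 intervals, with limma adjusted p-values between 1.19e-06 and 1.93e-06 over the 34 fractions. In chr1:42689799-42749799 the pair was the flat F probe A_30_P01019560 and the Pantr1-like R probe A_30_P01023139, whose difference F minus R ran from −5.08 in coronal fraction 12 to −2.72 in coronal fraction 3. In chr13:70745306-70837331 the R probe A_30_P01022956 was most like Tuba3a, a tubulin gene (r = 0.985), and the difference ran from −6.20 in coronal fraction 1 to −3.02 in coronal fraction 15. In chr2:31001736-31006911 the R probe A_30_P01030742 reached 1.71 in coronal fraction 1 against a coronal median of −0.85, and the F probe A_30_P01019607 stayed between −3.06 and −2.33 in that series. In both intervals 1 R probe thus stood out in coronal fraction 1, and other R probes did not all follow it: r among the detected R probes lay between −0.137 and 0.897 in the chromosome 13 interval and between −0.420 and 0.495 in the chromosome 2 interval.

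In chr17:35080914-35090009 the F probe A_30_P01030878 moved and the R probe A_30_P01031742 moved less. F ran from −4.03 in coronal fraction 1 to −1.44 in coronal fraction 12, and R from −3.34 to −2.63. The fifth pair was that of chr14:55671783-55680316, described above, whose difference ran from −3.07 in coronal fraction 8 to −0.07 in coronal fraction 13. With a linear term alone the pairs on chromosomes 17 and 14 did not pass, with limma adjusted p-values of 0.0831 and 0.230.

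**Figure D5:**
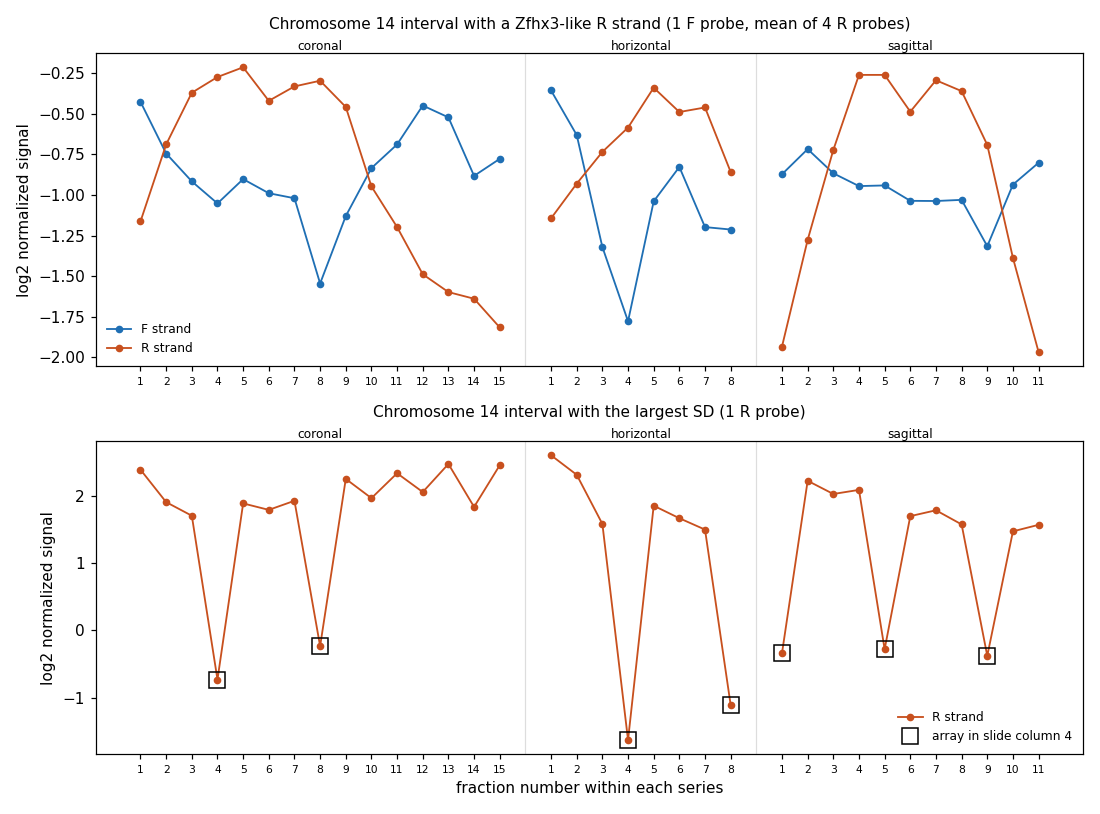
Log2 normalized signal (vertical axis) in the 34 fractions (horizontal axis, fraction number within each series). Above, the F profile (blue) and R profile (orange) of the chromosome 14 interval whose R strand was most like Zfhx3, with r = −0.496. Below, the single R probe of the chromosome 14 interval with the largest SD; squares mark the 7 arrays in slide column 4, which lay at −0.23 or lower while the others lay at 1.47 or higher.

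The largest spread over the fractions went with the place of the array on its slide. The file headers give each array a row and a column from 1 to 4 on the slide. In chr14:49314574-49358174 the R probe A_30_P01028303 had the largest SD of any strand profile, 1.14, and did not pass the test of change along the series (limma adjusted p = 0.558). Its 7 arrays in column 4 lay between −1.63 and −0.23 and its 27 other arrays between 1.47 and 2.60. These 7 arrays hold coronal fractions 4 and 8, horizontal fractions 4 and 8 and sagittal fractions 1, 5 and 9, on all 5 slides. The most like gene was Rps21, a ribosomal protein gene, at r = 0.979. In chr15:79709500-79714700, the fifth by SD, the single R probe used also lay lower in column 4, between −3.69 and −2.62 against −2.56 to −0.98, and was most like Rps21 too, at r = 0.875.

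The second by SD, the F probe A_30_P01032549 of chr17:71242333-71273533 (SD 0.87), was low in column 3. It lay between −1.96 and −0.75 on the 8 arrays of that column and between −0.76 and 1.01 on the others. These ranges just overlapped, and the probe was most like Scn8a, a sodium channel gene (r = 0.965). Of the 3841 detected probes of the 1067 intervals, 41 (1.07%) in 39 intervals had all arrays of a column above or below all others, against 0.844% of the other detected probes. All of them stood apart in column 3 or 4, and none in column 1 or 2. In column 3, 6 lay below and 12 above all other arrays, and in column 4, 8 lay below and 15 above. Of the other detected probes, 93 lay below and 21 above in column 3, and 126 below and 16 above in column 4. In both columns more members lay above than below, while more of the other probes lay below than above. With column means removed, the median r was 0.419 on the same strand and 0.212 on opposite strands. The part of the column in these probes' patterns was not tested further.

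In the remaining 2 intervals with a large SD no column stood apart or nearly so. In chr2:32950586-32984936 the F probe A_30_P01025465 had its highest coronal value, 2.31, in fraction 1 and its lowest, −1.25, in fraction 11, with a median of −0.13. It was most like Slc7a5, an amino acid transporter gene of the blood vessels of the brain (r = 0.961), passed the test of change (limma adjusted p = 1.49e-05), and had r = 0.358 with the R profile, whose coronal values stayed between −2.62 and −2.01. In chr9:41137539-41353289 the R probe A_30_P01020852 ran from −3.87 to −0.15 over all fractions and did not pass (limma adjusted p = 0.270).

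A strand detected in every fraction beside a strand detected in none was found in 7 intervals, 4 on F and 3 on R. The widest gap was in chr11:35805295-35817263, which has 1 probe on each strand. The F probe lay between 4.27 and 5.35 in all fractions, and the R probe, not well above background on any array, was measured between −7.88 and −5.74. On average over the arrays, the F probe was 811-fold above the dimmest signal that was well above background on each array. By the same measure the R probe of chr1:173353316-173367449 was 97.3-fold above that dimmest signal, which averaged −5.04. Its F probe, not well above background on any array, reached −4.68, so these folds are no strict lower bounds against the dim strand. These folds compare different probes and hold their difference in binding.

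Of the 5 named intervals of this kind, chr8:74431707-74442440 and chr10:83980790-83986015 had the most probes on the detected strand. Each had 5 bright probes against 1 dim probe. In chr8:74431707-74442440 the mean of the 5 F probes lay between −1.21 and −0.35 in single fractions. Their mean over all fractions, −0.66, was 20.7-fold above the dimmest signal that was well above background. All 5 passed the test of change along the series, with r among them between 0.790 and 0.934. In chr10:83980790-83986015 the 5 R probes averaged −1.27, 13.6-fold above that dimmest signal, and 1 of the 5 passed.

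One of the lncRNA probes the study names, A_30_P01030305, lies on the R strand of chr3:21964899-21974524. It was detected in all 34 fractions, between −0.54 and 0.47 with a median of −0.04, as were the other 4 R probes. Among the 5 R probes r lay between 0.849 and 0.939, and all 5 passed the test of change (limma adjusted p between 0.00177 and 0.00903). The R profile was highest in coronal fraction 11 at 0.45 and lowest in coronal fraction 1 at −0.55. Of the 5 F probes only A_30_P01022215 was detected in each series, between −4.03 and −2.92, below every R value. It did not pass (limma adjusted p = 0.166), and its r with the R profile was 0.295, with 0.378 in the coronal, −0.002 in the horizontal and 0.489 in the sagittal series. This r was higher with slide means removed, at 0.569, and within slides 1 to 4 it was 0.680, 0.327, 0.569 and 0.712.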

How the data were processed

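The authors labelled total RNA of each fraction in a single colour and hybridised it to an Agilent SurePrint G3 mouse array. They deposited the Feature Extraction 10.10.1.1 output, whose intensity values are a background-subtracted processed signal, with flags for each spot, and a processed table on the log2 scale, 99.917% of which lay within 0.02 of the log2 processed signal after an array-wide shift. Interval positions are those of the probe names, on mm9.

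Spots of a probe were averaged, put on the log2 scale and centred on the array's 75th percentile. Pearson's r was computed in numpy 2.4.6 (Python 3.11.15, with pandas 2.3.3 and scipy 1.17.1), and positions were tested with limma 3.58.1 in R 4.3.3 (lmFit, eBayes, moderated F over 6 position terms, Benjamini-Hochberg). The scripts were tested on simulated data. With 1 array per fraction, precision is limited by the number of arrays. Gene symbols (26582 probes) came from RefSeq tables of GRCm38.p6, used for names, chromosomes and strands only. No sequence is printed.

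The intervals named are those of the study's probes, the 5 with the largest SD and those of the 5 pairs with the smallest p. Others had the 5 highest and the 5 lowest r among intervals whose strand profiles both varied more than the median probe. A further 5 had every probe of one strand detected in all fractions and every probe of the other in none. The alternatives were other flags, scalings, a normexp correction (offset 50) with quantile normalization, the deposited table, Spearman's rho, series or slide means removed, slide 5 left out, the slide as a random block, limma-trend and a linear term. Overlapping intervals and slide columns were added after seeing the data. Members and lists were chosen with earlier results of these data known. A result for 1 gene is not reported here.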

Additional observations from a re-analysis of the deposited data

Results flagged for a closer look

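In the horizontal series, which has 8 fractions, 52 strand profiles of the named intervals were searched for a fraction that stood far from the others, and 3 were found. Chance alone marks about 1 profile in 20. The 52 are not all distinct, since chr14:55671783-55680316 and chr1:42689799-42749799 were named under more than 1 rule. For chr14:55671783-55680316 the F probe was the same each time. The F probe A_30_P01019607 of chr2:31001736-31006911 lay at −1.82 in horizontal fraction 7, and between −2.98 and −2.68 in the other fractions of that series. The R probe of chr8:74431707-74442440 lay at −4.76 in horizontal fraction 5, and at −6.86 or lower in the others, and was not well above background on any array. The R probe of chr11:35805295-35817263 lay at −7.81 in horizontal fraction 4, and at −6.98 or higher in the others, and it too was not well above background on any array.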

How the results depend on the processing

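The count of 585 intervals detected on both strands was 1014 with the weaker flag, 933 with any fraction of any series, 272 with all 34 fractions, 216 with at least 50% of the probes of each strand and 59 with every probe. The opposite-strand level difference of 2.32 was 2.16 for probes detected in all 34 fractions, 1.06 with normexp and quantile normalization together (2.33 with quantile alone) and 2.00 with 1 value per interval. The same-strand level difference was 1.35 with 1 value per interval. The opposite-strand median r of 0.189 was 0.313 for probes detected in all 34 fractions and 0.133 with normexp and quantile normalization together (0.147 with quantile alone), and the same-strand median of 0.391 was 0.646 for probes detected in all 34 fractions, 0.464 within the horizontal series and 0.288 with 1 value per interval. The opposite-strand median r was 0.165 with 1 value per interval. With a linear term only, 695 probes and 258 opposite-strand pairs passed, and 1726 pairs passed with normexp and quantile normalization together (904 with quantile alone). Counted by interval, 236 had such a pair. In the 361 intervals that overlap no other, 168 were detected on both strands (46.5%), the level difference was 2.24, 442 probes passed (43.0%) and 163 opposite-strand pairs passed (17.8%). In total 47 values of these results moved by less than the spread between series, or for counts by less than 1.5 times. Shares moved more than counts for probes detected in all 34 fractions, where fewer were tested. There 565 of 1514 opposite-strand pairs (37.3%) and 22.1% of same-strand pairs passed. Of the single probes, 64.7% of members and 76.1% of the other probes passed. The r between strands changed sign in chr17:71242333-71273533 (0.029) to −0.019 without slide 5 and −0.191 with column means removed, in chr9:41137539-41353289 (0.072) to −0.102 with median scaling, −0.039 with quantile normalization, −0.052 without slide 5 and −0.093 with series means removed, and in the chr13:70745306-70837331 pair (−0.066) to 0.109 with slide means removed. The causes were not tested. No paired analysis was possible because the fraction numbers shared by the series are positions along different axes of different mice, not replicate numbers. The median r was lower for pairs with a dimmer probe, the reason for which was not tested, and no fraction has a second array.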
